A study of Mus musculus with 12 samples.

Results

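Hey1, Hey2 and Heyl are the 3 members of the Hey family of basic helix-loop-helix transcriptional repressors, and each was measured by 1 spot of a Notch-pathway oligonucleotide array in mouse embryonic kidney. They were taken as the gene spots whose symbol was Hey1 (NM_010423), Hey2 (NM_013904) or Heyl (NM_013905), which made 3 of the 118 genes on the array, and all 3 were among the 106 genes bright enough to be tested. Total RNA of embryonic kidney was compared over 5 stages, with 3 arrays each for embryonic days 12 (E12) and 13 (E13) and 2 arrays each for E14, E16 and E18. No treatment, allele or strain was named for any stage, and how many embryos gave the RNA of each stage is not stated in the labels. The labels call the arrays of a stage technical replicates, so no p-value below measures the spread between animals of a stage. Comparisons of stages in the linear model rest on the spread between arrays within stages. The trend over days rests on the scatter of the 5 stage means about a line. The permutation test of late against early arrays pools 2 stages on each side, so stage differences enter its spread.

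Notch signalling passes from a ligand on one cell to a receptor on its neighbour. The receptor is cut, and its freed intracellular domain joins the DNA-binding protein RBPJ in the nucleus and switches on target genes, among them those of the Hey and Hes families. HEY proteins bind DNA as dimers, with each other or with HES proteins, and repress transcription. In the mouse, Hey1 and Hey2 are known for joint roles in the development of arteries and the heart, and Heyl for its expression in the smooth muscle of vessels. In the kidney, Notch signalling is known for its part in forming the proximal nephron.

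The sequences below show where RBPJ could meet the one Hey gene with a promoter window in the RefSeq table used (assembly GRCm38.p6), beside the Notch target Hes5. The motif searched was GTGGGAA, the core of the RBPJ recognition sequence, on both strands, and its matches are in capitals, those on the reverse strand reading as TTCCCAC. Each run covers 250 bases before the transcription start and 10 after it, 5′ to 3′ on the strand of the gene. The Hey2 window lies at chr10:30842774-30843033 on the minus strand and the Hes5 window at chr4:154960673-154960932 on the plus strand.
Hey2: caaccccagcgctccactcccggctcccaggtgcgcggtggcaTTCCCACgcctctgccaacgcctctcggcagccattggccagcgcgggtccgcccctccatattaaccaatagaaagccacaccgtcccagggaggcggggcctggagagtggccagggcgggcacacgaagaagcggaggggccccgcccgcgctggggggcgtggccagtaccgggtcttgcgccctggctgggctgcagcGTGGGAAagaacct
Hes5: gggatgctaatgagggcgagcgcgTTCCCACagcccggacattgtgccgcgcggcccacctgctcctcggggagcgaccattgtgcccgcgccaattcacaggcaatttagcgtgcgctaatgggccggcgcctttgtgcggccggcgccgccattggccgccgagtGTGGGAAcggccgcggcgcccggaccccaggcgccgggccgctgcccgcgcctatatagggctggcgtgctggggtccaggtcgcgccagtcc
The Hey2 window held 2 matches, 1 that began 207 bases before the start on the reverse strand and 1 that began 4 bases before it and ran across it. The Hes5 window also held 2, beginning 226 and 83 bases before the start. Of all 32851 windows in the table, each 300 bases long, 6.38% held at least 1 match and 0.256% held 2 or more. Among the 107 windows of genes on the array, 8 held a match (7.48%), and Hey2 and Hes5 were the 2 with more than 1. The 2 windows of Hes6 held 0, and Hey1, Heyl and Hes1 had no entry. A match is a run of letters and not a measured binding site.

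The spots were read by chemiluminescence and each file gives 1 intensity per spot. The median gene signal of an array ran from 4435 to 9671.5 and the mean of its 6 negative-control spots from 772.5 to 3495, so that the median gene lay 2.77 to 8.47 times above background. Between 94 and 112 of the 118 genes were above background on an array, meaning a signal over the negative-control mean by more than 2 SD. No 2 arrays shared more than 1 identical spot signal. The array held 0 of 9 defining markers of nephron progenitors and kidney epithelium, 0 of 5 endothelial and 0 of 4 mural-cell markers, so the labelled tissue could not be checked and the vessel content of the samples was not measured. In bulk RNA, fewer cells of a type and less RNA per cell cannot be told apart.

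All 3 Hey genes were above background on all 12 arrays, with very different margins. Hey1 had a signal of 14485 to 29253 (median 21886.5), which was 5.43 to 37.9 times the mean negative control of the array. Hey2 had 3317 to 9552 (median 6112.5), or 1.97 to 6.98 times the negative controls. Heyl had 2106 to 8568 (median 3947.5), or 1.50 to 4.94 times. For each of the 3 genes the lowest ratio was that of E18 replicate 1, the array with the highest background. Signals of different spots depend on their probes and are not set against each other here as amounts of RNA. In the deposited ratio table, where Ppia is the unit, Hey1 ran from 0.383 to 0.624, Hey2 from 0.0718 to 0.21 and Heyl from 0.0452 to 0.18.

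**Figure D1:**
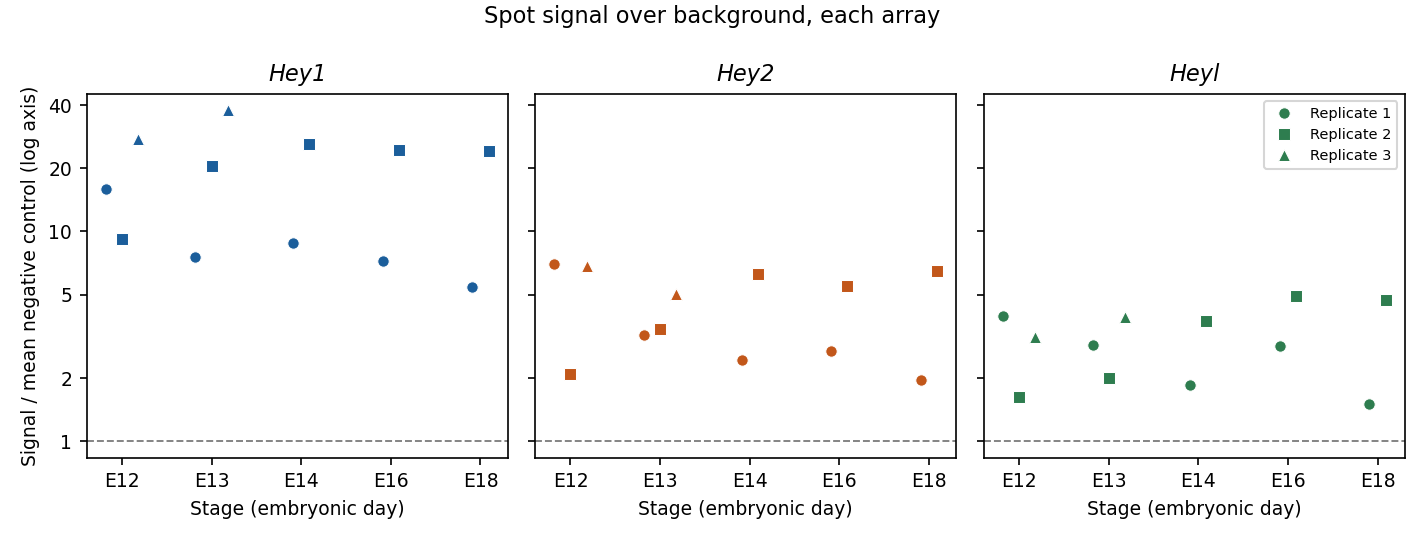
Spot signal of Hey1, Hey2 and Heyl divided by the mean of the negative-control spots on the same array (log axis), for each of 12 arrays by stage; the dashed line at 1 is the mean negative control and marker shapes are the replicate numbers. All points lie above the line, with Hey1 at 5.43 to 37.9 and Heyl at 1.50 to 4.94.

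The level of each gene is given below as normalized log2 signal, after background correction by the normexp model and quantile normalization over the gene spots of all arrays. This normalization works by rank, so arrays on which a gene holds the same rank get the same value. Each of the 3 genes took 7 distinct values over its 12 arrays.

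In the quantile-normalized values, Hey1 varied least of the 3 genes. The E12 arrays gave a log2 signal of 14.38, 14.19 and 14.38, the E13 arrays 14.46, 14.24 and 14.30, the E14 arrays 14.15 and 14.15, the E16 arrays 14.24 and 14.08, and the E18 arrays 14.19 and 14.24. The 3 highest arrays were of E12 and E13, and the 3 lowest were of E14 and E16. From low to high, the stage means were 14.15 at E14, 14.16 ± 0.11 at E16, 14.22 ± 0.03 at E18, 14.32 ± 0.11 at E12 and 14.34 ± 0.12 at E13 (SD, n = 2 from E14 on and n = 3 before), a range of 0.18 log2 units. The pooled SD within stages was 0.0958 for Hey1, against a median of 0.36 over all genes tested. The step between E18 and E12, an E18 minus E12 difference of -0.102, was slightly larger in size than this SD, and the other steps between neighbours were smaller. The SD of 0 at E14 comes from the equal rank on both arrays, whose signals were 15447 and 24615. Hey1 held ranks 88 to 98 among the gene spots on all arrays. With arrays scaled to their medians instead, its pooled SD within stages was 0.39 and its stage means spanned 0.71, so its narrow spread depends on the normalization.

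Hey2 had the widest spread within stages of the 3 genes in the quantile-normalized values, with a pooled SD of 0.47 against 0.41 for Heyl, whereas with array medians it was 0.35 for Hey2 and 0.40 for Heyl. The E12 arrays gave a log2 signal of 12.90, 11.53 and 12.82, the E13 arrays 12.39, 12.08 and 12.13, the E14 arrays 11.53 and 12.08, the E16 arrays 12.39 and 12.13, and the E18 arrays 11.69 and 12.13. The E12 arrays held both the 2 highest Hey2 values and the lowest, which an E14 array shared, so E12 overlapped with every other stage. From low to high, the means were 11.81 ± 0.39 at E14, 11.91 ± 0.31 at E18, 12.20 ± 0.17 at E13, 12.26 ± 0.19 at E16 and 12.42 ± 0.77 at E12. Each step in this order was smaller than the pooled SD within stages, 0.47.

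Heyl was highest at E16. The E12 arrays gave a log2 signal of 11.61, 10.83 and 11.61, the E13 arrays 12.20, 11.32 and 11.61, the E14 arrays 11.10 and 11.61, the E16 arrays 12.47 and 12.02, and the E18 arrays 11.10 and 11.61. Both E16 arrays lay above every array of E12, E14 and E18, and 1 E13 array lay between them. The means at E12, E14 and E18 were all 11.35 (SD 0.45, 0.36 and 0.36), followed by 11.71 ± 0.45 at E13 and 12.24 ± 0.32 at E16. The step between E13 and E16 was larger than the pooled SD within stages of 0.41, and the smaller steps were not. In unnormalized signal, Heyl was 6588 and 4490 at E16, against 3222 and 3558 at E14, 5244 and 4616 at E18, 8568, 2106 and 3036 at E13 and 4337, 2573 and 2886 at E12. Without normalization E16 and E18 thus overlapped, and E13 replicate 1 was the highest array of all.

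**Figure D2:**
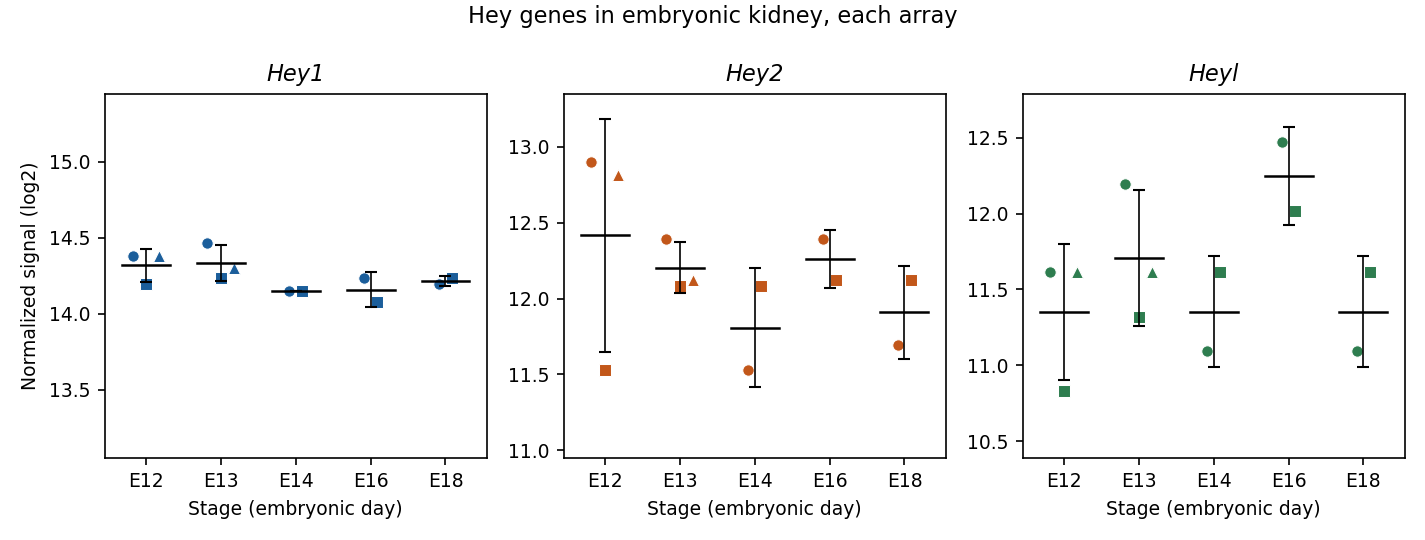
Normalized log2 signal of Hey1, Hey2 and Heyl on each of 12 arrays by stage; marker shapes are replicate numbers, horizontal lines the stage means and error bars the SD (n = 3 at E12 and E13, n = 2 later), and each panel spans the same number of log2 units. Hey1 stays between 14.08 and 14.46, Hey2 is scattered most at E12, and both E16 arrays of Heyl lie above all arrays of E12, E14 and E18.

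In the quantile-normalized values, Hey2 and Heyl were low on the same arrays. The 3 lowest arrays of both were E12 replicate 2, E14 replicate 1 and E18 replicate 1, with 11.53, 11.53 and 11.69 for Hey2 and 10.83, 11.10 and 11.10 for Heyl. On these arrays the median gene lay 2.81, 3.53 and 2.77 times above the negative controls, in the lower part of the range over arrays. E16 replicate 1, with the highest Heyl, had a ratio of 2.77. In unnormalized signal E18 replicate 1 was not low, at 6875 for Hey2 and 5244 for Heyl. The medians over all arrays were 6112.5 and 3947.5. What part signal over background had in the normalized values was not tested.

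Differences between stages were tested with limma, with 1 mean per stage over all 12 arrays, a moderated F test over the 5 stages, 7 contrasts between single stages, 1 contrast of late (E16 and E18) against early (E12 and E13) stages, and a trend over gestational day fitted to the 5 stage means. P-values were adjusted by the Benjamini-Hochberg method over the 106 genes, with a threshold of 0.05. None of the 30 tests of a Hey gene (3 genes in 10 comparisons) passed, 3 had an unadjusted p under 0.05, all of them of Heyl, and the lowest limma adjusted p was 0.284. A p that misses the threshold does not show that levels were equal, and the intervals below give what the arrays allow.

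Over the 5 stages, the moderated F was 1.03 for Hey1 (limma adjusted p = 0.925), 0.80 for Hey2 (limma adjusted p = 0.927) and 2.22 for Heyl (limma adjusted p = 0.67). Of all genes tested, 0.943% passed this test, which was 1 gene.

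Against E14, Heyl at E16 was 1.85-fold higher, with means of 12.24 at E16 and 11.35 at E14. The difference was 0.89 log2 units (SE 0.38, 95% interval 0.02 to 1.76), with an unadjusted p of 0.0453 in the limma fit and an adjusted p of 0.601. Both E16 arrays lay above both E14 arrays, and so did those of Hey2, whose means were 12.26 at E16 and 11.81 at E14 (difference 0.45, SE 0.43, 95% interval -0.53 to 1.43, limma adjusted p = 0.918). For Hey2 this lack of overlap held under 3 of the 7 scalings, all 3 with quantile normalization. The Hey2 difference was 0.18 without E14 replicate 1 and 0.71 without E14 replicate 2. Between these stages 13.2% of all genes tested were higher at E16 with no overlap of arrays, 7.55% had an unadjusted p under 0.05 and 0.943% passed the adjusted test. Hey1 differed by 0.01 (SE 0.13, 95% interval -0.30 to 0.31).

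Against E16, Heyl at E18 was 1.85-fold lower, with 11.35 at E18 and 12.24 at E16. The difference was -0.89 (SE 0.38, 95% interval -1.76 to -0.02), with an unadjusted p of 0.0453 in the limma fit and an adjusted p of 1. Both E18 arrays lay below both E16 arrays. This held for 8.49% of all genes tested, 3.77% had an unadjusted p under 0.05 and 0% passed. Hey2 differed by -0.35 (SE 0.43, 95% interval -1.33 to 0.63) and Hey1 by 0.06 (SE 0.13, 95% interval -0.25 to 0.36). The contrasts of E16 with E14 and of E18 with E16 share the E16 arrays, so the opposite signs of Heyl are 2 readings of the same high stage and not separate evidence.

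Against E12, Heyl at E16 was 1.86-fold higher, the Hey difference with the smallest p. Its means were 12.24 at E16 and 11.35 at E12 (difference 0.89, SE 0.35, 95% interval 0.10 to 1.68), with an unadjusted p of 0.0313 in the limma fit and an adjusted p of 0.284. Both E16 arrays lay above all 3 E12 arrays, which held for 9.43% of all genes tested. Here 12.3% of genes had an unadjusted p under 0.05 and 1.89% passed. In the same comparison Hey1 and Hey2 both differed by -0.16, with an SE of 0.12 for Hey1 (95% interval -0.44 to 0.12) and 0.39 for Hey2 (95% interval -1.05 to 0.73).

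The array with the highest Heyl, E16 replicate 1, also had a high background, 2324 against 908 on E16 replicate 2. What part background had in the Heyl values was not tested. When the 3 arrays of highest background (E13 replicate 1, E16 replicate 1 and E18 replicate 1) were left out, the Heyl difference was 0.67 for E16 minus E12, 0.66 for E16 minus E14 and -0.41 for E18 minus E16. This left 1 array at E16 and 1 at E18, so the levels of E16 and E18 in these differences rest on 1 array each. The summed signal of the 6 keratinocyte markers on the array was lower at E16, at 29837 to 34236, than at any other stage. It was 46848 to 50507 at E12, 38450 to 61319 at E13, 35294 to 53387 at E14 and 42160 to 48790 at E18. Of 7 listed blood markers the array held 3, and their summed signal was 30143 to 37971 at E16 and 26694 to 28905 at E12. The E16 range overlapped with those of E13 (33042 to 43797), E14 (30627 to 39316) and E18 (36742 to 41199). Both sums are of spot signal before background correction and normalization, so differences in background between arrays enter them. The part of either marker list in the Heyl values was not tested. E16 had the highest Heyl mean under all 7 scalings tried. Both E16 arrays lay above both E14 arrays under 7 of 7, above all E12 arrays under 5 of 7 and above both E18 arrays under 4 of 7. They overlapped with E12 under housekeeping scaling and in the deposited ratios, and with E18 under these 2 and without normalization. Of the 7 scalings, 3 share the quantile normalization and are not separate evidence. The shares over all genes given above are for the quantile-normalized values, and none were taken under the other scalings.

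**Figure D3:**
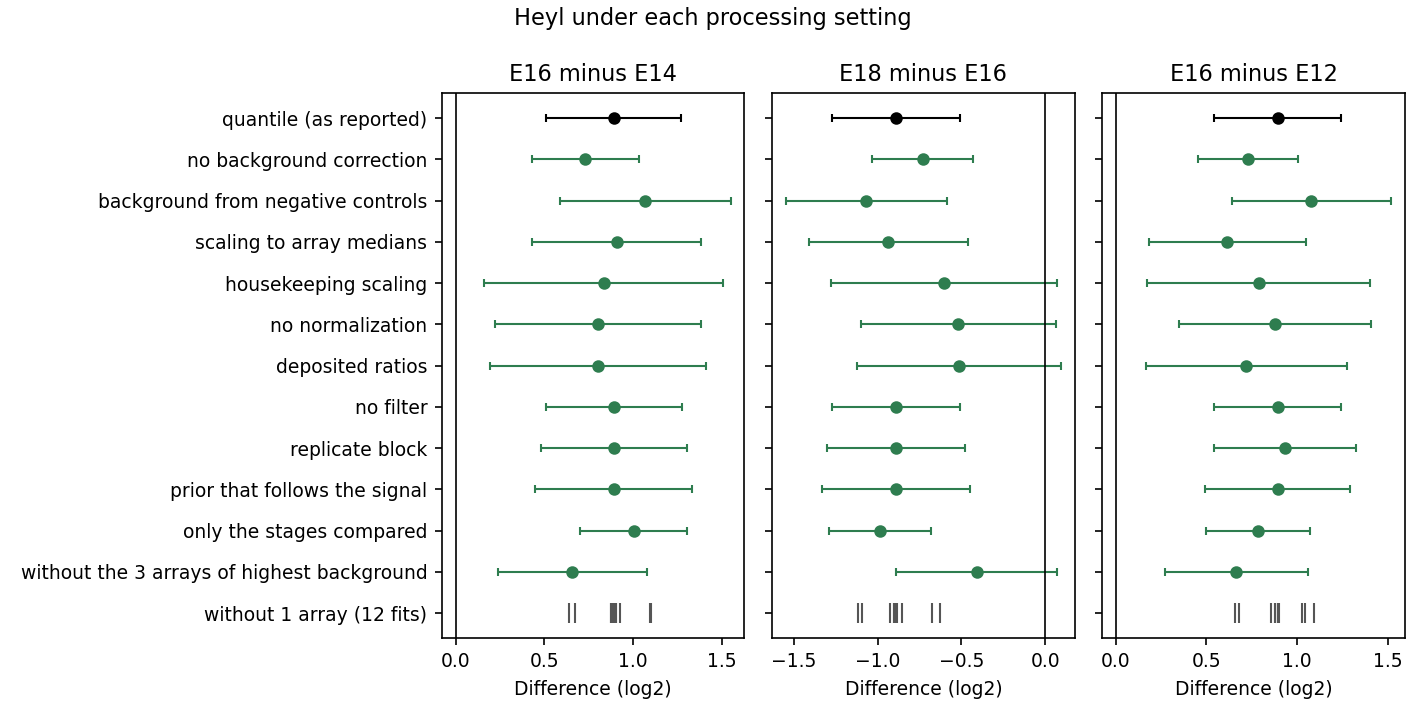
Difference of Heyl in log2 units for E16 minus E14, E18 minus E16 and E16 minus E12 (panels) as reported (black) and under each other setting (green), with bars of 1 SE; ticks in the bottom row are the 12 fits without 1 array, drawn without error. Every value keeps its sign, from 0.61 to 1.09 for E16 minus E12 and from 0.64 to 1.10 for E16 minus E14, and from -1.12 to -0.41 for E18 minus E16.

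At E14, Hey1 lay below both earlier stages with no overlap of arrays in the quantile-normalized values, though by little. Both E14 arrays were at 14.15, against 14.19 to 14.38 at E12 and 14.24 to 14.46 at E13. The difference was -0.17 from E12 (SE 0.12, 95% interval -0.45 to 0.11, limma adjusted p = 0.844) and -0.18 from E13 (SE 0.12, 95% interval -0.46 to 0.09, limma adjusted p = 0.926). Of all genes tested, 11.3% lay below E12 and 9.43% below E13 in this way. The adjusted limma test passed 0.943% of genes for E14 minus E12 and 0% for E14 minus E13, where 6 genes had an unadjusted p under 0.05. Hey1 was without overlap in each of these comparisons under 3 of the 7 scalings, all 3 with quantile normalization. With array medians, housekeeping scaling, no normalization and the deposited ratios, its arrays overlapped in both. At the same stage Hey2 differed by -0.61 from E12 (SE 0.39, 95% interval -1.50 to 0.28) and by -0.39 from E13 (SE 0.39), and Heyl by 0.00 from E12 (SE 0.35) and by -0.35 from E13 (SE 0.35).

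Between E13 and E12, and between E18 and E12, the arrays of every Hey gene overlapped. For E13 minus E12 the differences were 0.02 for Hey1 (SE 0.11), -0.22 for Hey2 (SE 0.35) and 0.36 for Heyl (SE 0.31), and 0% of all genes passed in the limma fit, with 5 at an unadjusted p under 0.05. For E18 minus E12 the 95% interval was -0.38 to 0.18 for Hey1, -1.40 to 0.38 for Hey2 and -0.79 to 0.79 for Heyl, around differences of -0.10, -0.51 and 0.00, and 1.89% of all genes passed. The intervals of Hey2 and Heyl were wider than that of Hey1 throughout.

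**Figure D4:**
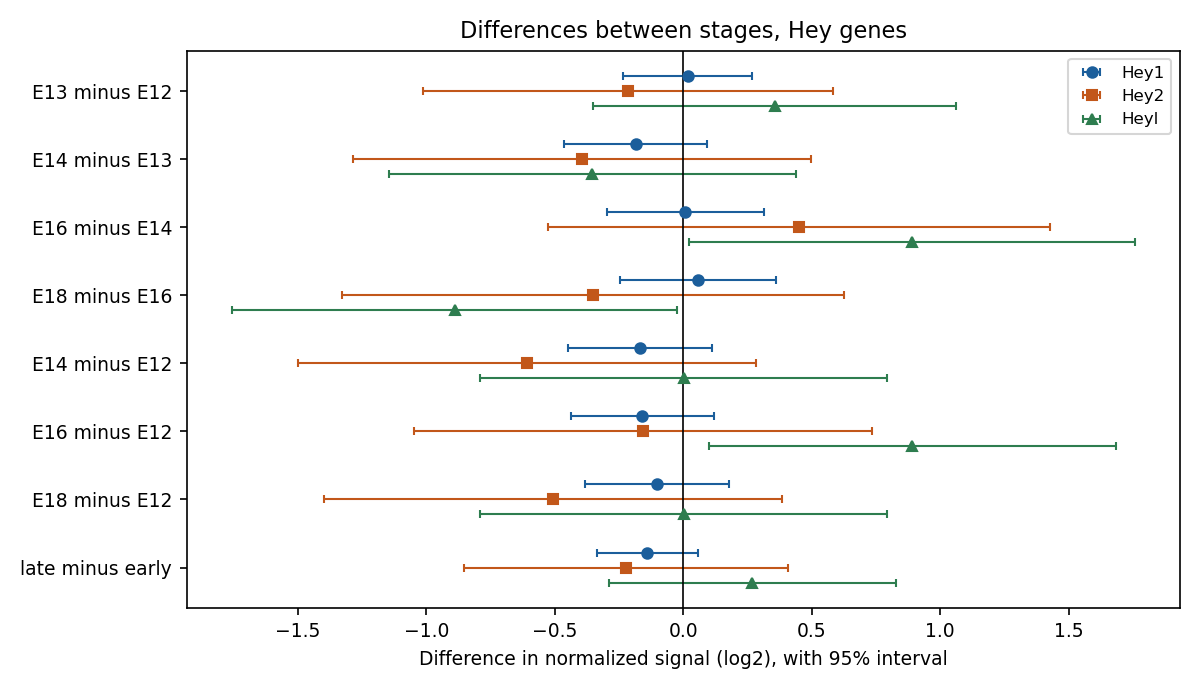
Differences between stages in normalized log2 signal for Hey1 (blue circles), Hey2 (orange squares) and Heyl (green triangles), with the 95% interval of the limma fit before adjustment over genes; early is the mean of E12 and E13 and late that of E16 and E18. Heyl excludes 0 in the 3 contrasts that involve E16 against a single stage, E12, E14 or E18, and the intervals of Hey1 are the narrowest throughout.

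Late kidneys (E16 and E18, 4 arrays) were then set against early ones (E12 and E13, 6 arrays), the contrast with the most arrays on each side. Hey1 was 14.19 ± 0.08 late and 14.33 ± 0.10 early (SD, n = 4 and 6), a limma difference of -0.14 (SE 0.09, 95% interval -0.34 to 0.06, adjusted p = 0.506). Hey2 was 12.08 ± 0.29 late and 12.31 ± 0.51 early, a difference of -0.22 (SE 0.28, 95% interval -0.85 to 0.41, limma adjusted p = 0.823). Heyl was 11.80 ± 0.59 late and 11.53 ± 0.45 early, a difference of 0.27 (SE 0.25, 95% interval -0.29 to 0.83, limma adjusted p = 0.73). The arrays of late and early stages overlapped for each gene. A 2-sided exact permutation test over the 210 ways to place the arrays gave p = 0.0714 for Hey1, 0.524 for Hey2 and 0.41 for Heyl (0.214, 0.524 and 0.524 adjusted over the 3 tests), and the smallest p it allows is 0.00952. Its units are arrays, which the labels call technical replicates, so this smallest p does not hold for stages as units. In this comparison 3.77% of all genes passed, namely Fos as the 1 higher and Il17b, Krt1 and Lor as the 3 lower genes, which are named here because they are so few.

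The Hey2 differences from early stages moved with each of the E12 arrays. Without E12 replicate 2, on which Hey2 was at 11.53, the difference was -0.45 for late minus early (limma adjusted p = 0.198), -0.97 for E18 minus E12 (limma adjusted p = 0.0962) and -1.07 for E14 minus E12 (limma adjusted p = 0.134). With all arrays, these were -0.22, -0.51 and -0.61. Without E12 replicate 1 they were -0.11, -0.28 and -0.39, and without E12 replicate 3 they were -0.12, -0.29 and -0.39. Late minus early was also moved by over 1.5 times without E16 replicate 2 (-0.15) or E18 replicate 1 (-0.13), E18 minus E12 without E18 replicate 1 (-0.32) and E14 minus E12 without E14 replicate 1 (-0.35). None of these values passed the threshold. Without normalization, with housekeeping scaling and in the deposited ratios, Hey2 was at 0.08, 0.03 and 0.07 for late minus early, so its direction depends on the scaling.

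With each stage as 1 value, the slope per gestational day was -0.02 log2 units for Hey1 (SE 0.02, limma adjusted p = 0.724), -0.05 for Hey2 (SE 0.05, limma adjusted p = 0.615) and 0.03 for Heyl (SE 0.08, limma adjusted p = 0.962). Of all genes tested, 1.89% passed this test. The Heyl means did not follow a line, with E16 above both E14 and E18. The equal means at E14 and E18 come from tied ranks, and over all settings E18 minus E12 ran from -0.32 to 0.36.

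Other genes on the array were read in the same way, as lists chosen with earlier results of these data known. The median late minus early difference of the 3 Hey genes was -0.14, with 1 of 3 above 0, against 0.04 over all 106 genes. The Hes genes, close relatives of the Hey genes, had a median of 0.13. Hes1, a repressor active in many progenitors, differed by 0.13 (SE 0.08), Hes5 by 0.16 (SE 0.33) and Hes6, a relative that opposes Hes1, by -0.17 (SE 0.08, limma adjusted p = 0.303). The median was 0.34 for the 5 ligands, where Jag1 was at 0.50 (SE 0.12, limma adjusted p = 0.0549) and Dll1 at 0.48 (SE 0.44). For the 4 receptors it was 0.14, with Notch1 at 0.43 (SE 0.20) and Notch2 at 0.17 (SE 0.27). The nuclear complex that acts with the cut receptor had a median of 0.04 over 5 tested genes of 6 on the array, with Rbpj itself at 0.11 (SE 0.17) and the co-activator Ep300 at 0.43 (SE 0.39). The 7 genes listed as co-repressors, which need not all act on Notch targets, had a median of -0.15. Among them hr, the mouse hairless gene, was at -0.53 (SE 0.18). Nrarp, a feedback inhibitor induced by Notch, was at 0.28 (SE 0.17). The 7 proteases and secretase subunits that act on ligands and receptors had 0.08, with Psen2, a catalytic subunit, at 0.38 (SE 0.29). No member of these lists passed the late against early test, where the lowest limma adjusted p was the 0.0549 of Jag1, or the F test, where it was 0.0725, also of Jag1. For E18 minus E12, 1 of the 5 ligands passed, Jag1, with means of 14.34 at E18 and 13.49 at E12 (difference 0.85, SE 0.17, limma adjusted p = 0.0476), and 0 members of the other lists did. Over all genes tested the share was 1.89%. With the replicate block the Jag1 difference was 0.80 and the call was lost (limma adjusted p = 0.109), and Jag1 passed in 6 of 23 other settings, 3 of them among the 12 fits without 1 array. The medians for E18 minus E12 were -0.10 for the Hey genes, 0.10 for the Hes genes, 0.40 for the ligands and 0.28 for the receptors, against 0.02 over all genes tested.

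The genes whose pattern was most like that of each Hey gene were taken by Pearson's r over the 12 arrays, which share their RNA within a stage and their array effects across genes, so r is given as a description. Hey1 was most like Hes6 (r = 0.74), Il17b, a cytokine gene (0.69), and Hey2 (0.68). Hey2 was most like Axin1, a scaffold of the Wnt pathway (r = 0.77), Lfng, a fringe enzyme that modifies Notch receptors (0.69), and Hey1 (0.68). Heyl was most like Fzd8, a Wnt receptor (r = 0.86), Ivl, a gene of the cornified envelope (0.72), and Il6st, a cytokine receptor subunit (0.67). Ivl is 1 of the 6 keratinocyte markers whose summed signal before normalization was lowest at E16. Its own normalized mean was highest there, at 10.36 ± 0.64, against 9.28 ± 0.46 at E14 and 9.87 ± 0.15 at E18. Several of these were dim, with Fzd8 above background on 9 of 12 arrays, Il17b on 9, Axin1 and Lfng on 10 and Ivl on 5, while Hes6 and Il6st were above it on all 12. Over the 5 stage means, r was 0.98 for Heyl and Fzd8, which was at 10.91 ± 0.57 at E16, against 9.81 ± 0.18 at E12, 10.30 ± 0.45 at E13, 9.90 ± 1.01 at E14 and 10.07 ± 0.23 at E18. It was 0.85 for Hey1 and Hes6, 0.82 for Hey2 and Axin1 and 0.21 for Hey2 and Lfng.

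Among themselves, the Hey genes were alike only in part. Over the 12 arrays r was 0.68 for Hey1 and Hey2, 0.61 for Hey2 and Heyl and 0.30 for Hey1 and Heyl. Over the 5 stage means these were 0.60, 0.39 and -0.25. With arrays scaled to their medians, r over the arrays was 0.18, 0.61 and -0.08, so between these 2 normalizations the r of Hey1 and Hey2 changed and that of Hey2 and Heyl was about the same. Under that scaling Hes6 remained near the top for Hey1 (r = 0.96, rank 3), Axin1 first for Hey2 (0.72) and Fzd8 first for Heyl (0.87). Il17b was at rank 60 for Hey1 (0.30), Lfng at rank 4 for Hey2 (0.55) and Il6st at rank 7 for Heyl (0.51), while Ivl was at rank 2 for Heyl (0.69). With array medians the pooled SD of Hey1 within stages was 0.39, against 0.0958 with quantile normalization. What part array-wide shifts had in the r of Hey1 and Hes6 was not tested.

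**Figure D5:**
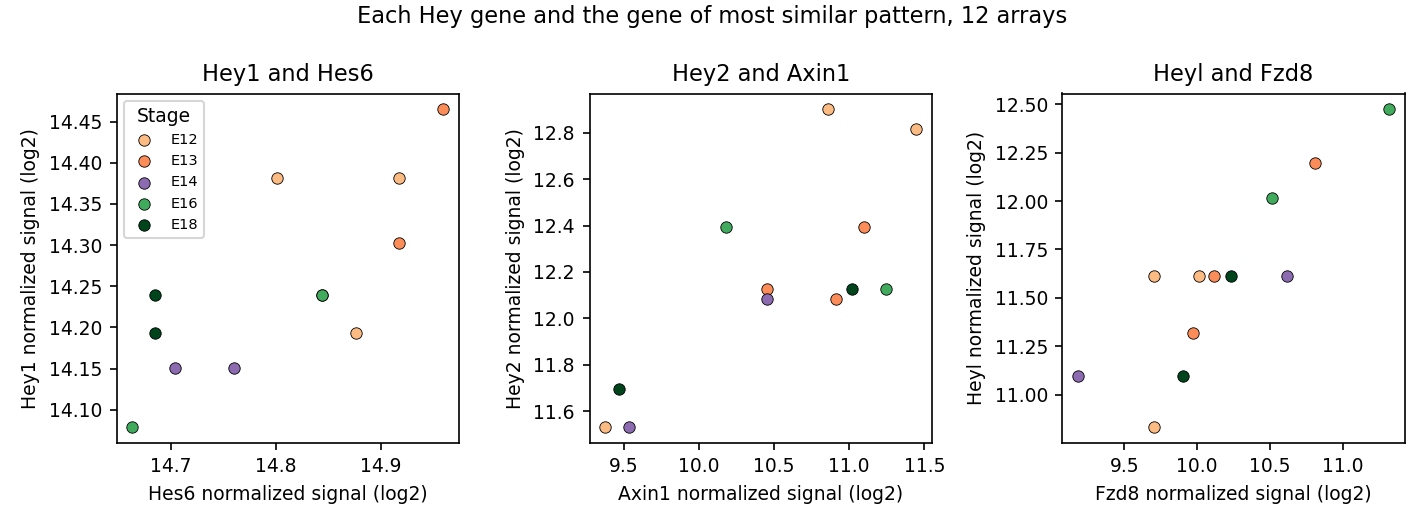
Normalized log2 signal of Hey1 against Hes6, Hey2 against Axin1 and Heyl against Fzd8 on 12 arrays, each point 1 array coloured by stage. High values of both genes go together in each panel, with r of 0.74, 0.77 and 0.86, and the array with the highest Heyl and Fzd8 is an E16 array.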

How the data were processed

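Each of the 12 arrays has 1 deposited file of spot intensity, in which the authors give whole numbers and no background column, and these were treated as uncorrected. The labels' protocols name TRIzol extraction, amplification and biotin labelling; image software and genome build are not stated there. The deposited ratio table gives each gene spot relative to Ppia after the array's dimmest spot is subtracted, as found from the values.

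Background was corrected by normexp (offset 50, all spots). The 120 gene spots were log2-transformed and quantile-normalized, duplicates averaged, and genes tested if above background (negative-control mean plus 2 SD) on all arrays of 1 stage or more. Tests were 2-sided in limma 3.58.1 (R 4.3.3, 7 residual and 1.72 prior degrees of freedom), after the procedure was tested on simulated data. Precision is limited by how many arrays there are.

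The Hey genes, the lists and the naming rule were chosen with earlier results of these data known. The rule names the Hey and Hes genes, the 3 genes most like each Hey gene, and up to 2 genes of each other list by p of late minus early; 1 gene it takes is not reported here. By accession, 115 of 118 genes matched RefSeq (GRCm38.p6), and 86 had a promoter window. Same-numbered arrays of E12 and E13 had deviations with r of 0.122 to 0.222 over 3 pairs. Numbers were therefore taken as pairing in the replicate block setting, from the data alone. Over all stages r ran from -0.378 to 0.367, and 8 of 21 pairs exceeded 0.1. Where both stages have 2 arrays, the 2 pairs give the same r by construction. Arrays of different number were not compared, so these r do not show that the numbers mark pairs. Alternatives changed the background correction, scaling, filter, replicate block, prior, stages fitted and arrays included.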

Additional observations from a re-analysis of the deposited data

How the results depend on the processing

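No Hey gene passed the threshold in any of 696 alternative values over 28 other settings, and 45 of these changed sign, 17 of them in fits without 1 array. The cause of these changes was not tested. Heyl for E16 minus E12, E16 minus E14, E18 minus E16, E13 minus E12, E14 minus E13 and late minus early, Hey1 for E14 minus E13, late minus early and the trend, and Hey2 for E14 minus E12 and E16 minus E14 kept their sign in every alternative run. The rest changed sign as follows. With no normalization, Hey1 was at 0.0632 for E14 minus E12, 0.0257 for E16 minus E12, -0.0375 for E16 minus E14 and 0.12 for E18 minus E12, and Hey2 at 0.00949 for E16 minus E12, 0.0894 for E18 minus E12, 0.0799 for E18 minus E16, 0.0817 for late minus early and 0.0218 per day. With housekeeping scaling, Hey1 was at -0.0075 for E16 minus E14, Hey2 at 0.0267 for late minus early and 0.0043 per day, and Heyl at -0.0444 for E14 minus E12. In the deposited ratios, Hey2 was at 0.0023 for E14 minus E13, 0.0452 for E18 minus E16, 0.0723 for late minus early and 0.0144 per day, and Heyl at -0.0795 for E14 minus E12. With array medians, Hey1 was at -0.33 for E18 minus E16, and Heyl at -0.29 for E14 minus E12, -0.32 for E18 minus E12 and -0.0102 per day. That scaling shifted the median of all genes by -0.46 for E18 minus E12, -0.31 for late minus early and -0.18 for E16 minus E12, and no normalization shifted it by 0.22 for E18 minus E12. With no background correction, Heyl was at -0.0010 for E14 minus E12 and for E18 minus E12. Without the 3 arrays of highest background, Hey1 was at -0.0403 for E13 minus E12 and -0.0615 for E16 minus E14, the latter with 1 array at E16. The slope of Heyl was -0.0074 without stage E12 and -0.0209 without stage E16.

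Leaving out 1 array gave a range of -0.0415 to 0.0624 for Hey1 in E13 minus E12, -0.0693 to 0.0886 in E16 minus E14 and -0.0242 to 0.13 in E18 minus E16. For Hey2 it was -0.67 to 0.0117 in E13 minus E12 and -0.61 to 0.0731 in E16 minus E12. For Heyl it was -0.27 to 0.25 in E14 minus E12 and in E18 minus E12, and -0.0069 to 0.0657 per day.

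With the replicate block, Heyl was at 0.93 for E16 minus E12 (limma adjusted p = 0.417) and 0.89 for E16 minus E14 (limma adjusted p = 0.744), and the block changed no call of a Hey gene.

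The number of genes past the threshold among all tested moved as follows, and counts need not hold the same genes. For E13 minus E12 it was 0, and 1 with no background correction or the prior that follows the signal. For E14 minus E12 it was 1, and 0 with housekeeping scaling, unnormalized values, only the stages compared and without the 3 arrays. For E16 minus E12 it was 2, and 4 with no background correction or that prior, 1 with array medians or the replicate block, and 0 with the ratios as deposited, housekeeping scaling, unnormalized values, only the stages compared and without the 3 arrays. For E16 minus E14 it was 1, and 0 with array medians, the ratios as deposited, housekeeping scaling, unnormalized values, the replicate block, that prior, only the stages compared and without the 3 arrays. For E18 minus E12 it was 2, and 4 with that prior, 1 with array medians, and 0 with the ratios as deposited, housekeeping scaling, unnormalized values, no filter, the replicate block, only the stages compared and without the 3 arrays. For late minus early it was 4, and 8 with that prior, 2 with array medians, 1 with unnormalized values, and 0 with housekeeping scaling, the deposited ratios and without the 3 arrays. For the F test it was 1, and 6 with that prior, 2 with array medians, and 0 with the ratios as deposited, housekeeping scaling, unnormalized values, the replicate block and without the 3 arrays. For the trend it was 2, and 12 with that prior, and 0 without the 3 arrays or any 1 stage. Leaving out 1 array gave 1 to 3 genes for E16 minus E12, between 0 and 7 for E18 minus E12, up to 2 for E16 minus E14 (lowest 0), 0 to 1 for E14 minus E12 and E14 minus E13, 1 to 6 for late minus early, 0 to 3 for the F test and 0 to 3 for the trend, and 0 throughout for E13 minus E12 and E18 minus E16. The Heyl signal was 1.50 to 4.94 times the negative controls, and what part this had in its precision was not tested.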

Other observations

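Differences between 2 Hey genes on the same array do not change when each array is shifted by a constant (array medians, housekeeping scaling), but they do under quantile normalization. The level of such a difference also reflects the 2 probes, so at most its change across arrays can be read. Background that differs between arrays can still enter that change. On background-corrected log2 signal, Heyl minus Hey2 was 0.09 and -0.16 on the E16 arrays, the 2 highest of all 12. It was -0.93, -0.56 and -1.22 at E12, -0.22, -0.89 and -0.38 at E13, -0.59 and -0.77 at E14, and -0.77 and -0.49 at E18. Heyl minus Hey1 was -1.62 and -2.39 on the E16 arrays, which ranked 1 and 4 from the top, with E13 replicate 1 at -1.71 and E12 replicate 1 at -2.19 between them. E16 replicate 1 and E13 replicate 1 are 2 of the 3 arrays of highest background, and E18 replicate 1, the other, ranked 6. What part background had in these differences was not tested. Hey2 minus Hey1 was -1.71 and -2.23 at E16, which ranked 3 and 8. These values were looked at after the high E16 level of Heyl had been seen, and no test was made of them.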
